A study of Mus musculus with 12 samples.

Results

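The cells described here are neurons of the mouse intestinal wall that carried many transcripts of Tac1, the precursor gene of substance P and neurokinin A, or of Penk, the precursor gene of the enkephalins. They came from 6 plates of single cells, 1 cell sorted per well, from the gate that the labels call CD49b- neuronal cells. A well belonged to the group if it had at least 1000 UMIs (unique molecular identifiers, each standing for 1 captured transcript), at least 500 detected genes and under 20% mitochondrial UMIs, at most 1 Nos1 UMI, fewer than 3 UMIs of Calcb and Scgn together, and at least 10 UMIs of Tac1 and Penk together. This rule found 117 wells among 528 retained CD49b- wells, in a series of 1150 wells on 12 plates. The other 411 retained CD49b- wells were 254 Nos1 wells with 2 or more Nos1 UMIs, 140 Tac1/Penk-low wells and 17 wells with 3 or more UMIs of Calcb and Scgn.

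In the study, adult C57BL/6 mice given 3 mg tamoxifen at 8 or 9 weeks of age were either irradiated with 10.5 Gy 7 days later or left without irradiation (homeostasis). Tissue was collected 10 days after tamoxifen from both, that is, 3 days after the radiation dose where it was given. Cells were sorted from the LMMP, the longitudinal muscle with the attached myenteric plexus, by a tdTomato label that follows Dclk1 (a microtubule-associated kinase). The sampled neurons are therefore those the label marked, not all neurons of the plexus. Each plate was a pool of 2 mice and each treatment had 3 CD49b- plates, so the plate was the unit of replication and wells of 1 plate were never counted as replicates. The 3 irradiated plates gave 11, 20 and 20 of the Tac1/Penk wells, and the 3 homeostasis plates gave 24, 13 and 29.

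Neurons of the myenteric plexus drive the movements of the gut. Excitatory motor neurons release acetylcholine and tachykinins onto the muscle, which contracts; inhibitory motor neurons release nitric oxide, made by the synthase that Nos1 encodes, and peptides such as VIP, and the muscle relaxes. Enkephalins are opioid peptides made by part of the excitatory neurons and by interneurons of the plexus.

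The Tac1/Penk wells held a median of 8287 UMIs (2329 to 14473) from a median of 3503 genes. The Nos1 wells held a median of 7740 UMIs and the Tac1/Penk-low wells 5424, so a limit of 10 UMIs asked for a larger part of the transcripts in the shallower class. The Tac1/Penk wells of the first irradiated plate were the shallowest, with a median of 5773 UMIs, against 8288 to 9670 UMIs on the other 5 plates. The 96 barcodes that mark wells recur on the plates as positions of a plate do, so shared barcodes are not shared cells. No doublet caller was run because 1 cell was sorted per well.

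The label was checked against defining genes of neurons and of the other cell types in the tissue. Snap25, Prph and the other pan-neuronal genes summed to 6303 to 8038 CPM (UMIs of a gene per 1000000 UMIs of the wells summed) per plate in the Tac1/Penk wells, close to the 6606 to 7734 CPM of the other CD49b- wells. Uchl1 was the only 1 of the 11 pan-neuronal genes with no UMI, and it had none in any other class of CD49b- wells either. The glial genes Gfap and Sox2, the smooth muscle genes Myh11, Tagln, Des and Cnn1, and Kit and Ano1 of interstitial cells of Cajal had no UMI in the Tac1/Penk wells. The glial list of 10 genes summed to 302 to 648 CPM, most of it Cryab (329 CPM on average), against 496 to 758 CPM in the other wells. Fibroblast genes summed to at most 23.6 CPM on any plate, with Lum, Col1a1, Col1a2 and Pdgfra at 0. The endothelial and pericyte list of 6 genes reached higher sums than in the other wells, with overlap, at 43.4 to 137 CPM in the Tac1/Penk wells and 32.5 to 53.04 CPM in the others, most of it Rgs5 (39.7 CPM on average) and Egfl7 (30.1 CPM), with Cdh5 and Kdr at 0. The macrophage list of 8 genes summed to 0 to 77.6 CPM in the Tac1/Penk wells and 19.6 to 46.3 CPM in the others, most of it Adgre1, with 6 genes at 0, among them C1qa, C1qb and Csf1r.

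The rule itself set the levels of Tac1 and Penk, and these are given as a description without a test. Tac1 (GRCm38, chromosome 6, 7554879 to 7565834, plus strand) had 4424, 4504 and 4622 CPM on the irradiated plates, against 3975, 3735 and 3807 CPM on the homeostasis plates. Every irradiated plate was above every homeostasis plate for Tac1, as for 5.79% of the genes tested for irradiation in these wells. Penk (chromosome 4, 4133531 to 4138819, minus strand) had 854, 2741 and 2374 CPM on the irradiated plates, against 475, 1468 and 1634 CPM on the homeostasis plates, and the groups overlapped. An antisense gene model, A830012C17Rik, overlaps Penk, and the sources used here do not say whether counting used strand.

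Most wells were chosen through Tac1. Tac1 UMIs, not corrected for transcript length, outnumbered Penk UMIs in 101 of the 117 wells, with a median of 31 Tac1 UMIs per well against 2 Penk UMIs. In 85 wells only Tac1 reached 10 UMIs, in 24 wells both did, in 5 wells only Penk did, and in 3 wells neither did alone. No Penk UMI was seen in 26 wells and no Tac1 UMI in 2 wells. Across the 117 wells the counts of the genes had a Spearman correlation of 0.37 and a Pearson correlation of 0.013, as a description over wells that share plates and differ in depth.

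**Figure D1:**
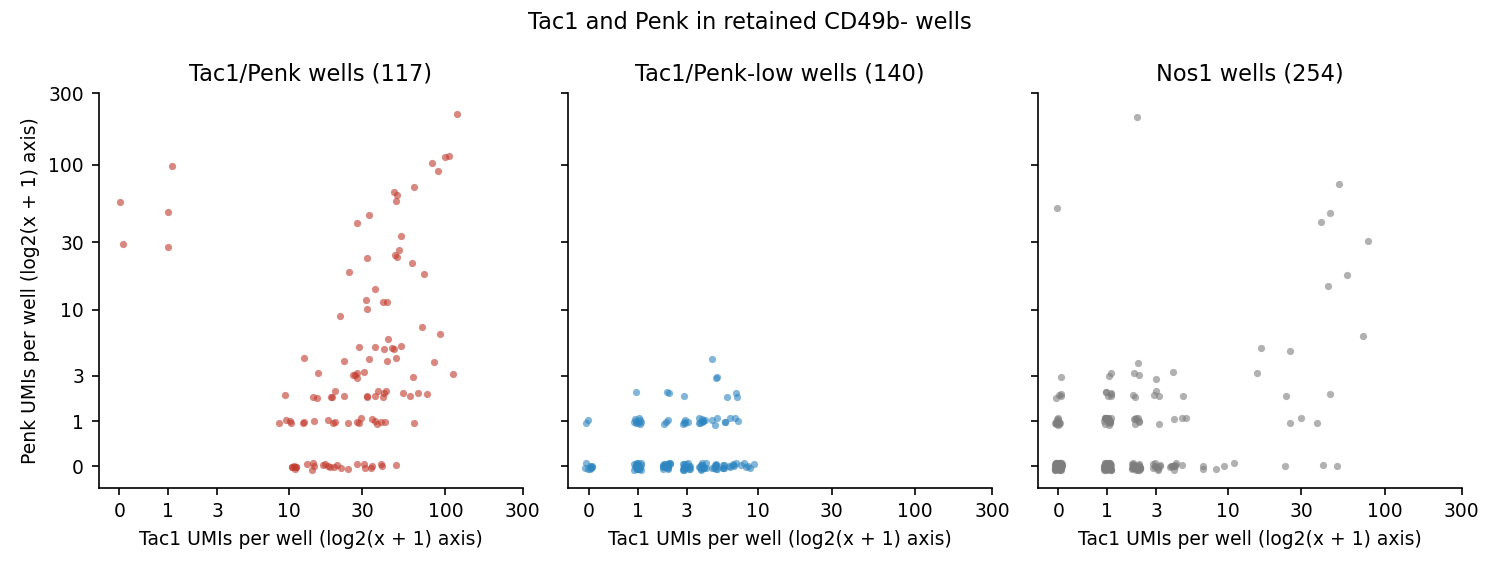
Tac1 UMIs (x axis) against Penk UMIs (y axis) of each well, both as log2(UMIs + 1) with a small jitter, for the 117 Tac1/Penk wells, the 140 Tac1/Penk-low wells and the 254 Nos1 wells. Most Tac1/Penk wells lie to the right with few Penk UMIs, and 5 lie at the upper left with at most 1 Tac1 UMI.

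The limit of 10 UMIs did not fall in an empty range. 3 wells had exactly 10 UMIs of Tac1 and Penk, 8 had 11 and none had 12, while 5 wells just outside had 9. The 11 wells with 10 to 12 UMIs had no Kcnip4 UMI and a median of 29 UMIs of Calb2, which encodes the calcium-binding protein calretinin, and in the 21 wells with 7 to 9 UMIs these were no Kcnip4 UMI and a median of 20 Calb2 UMIs. Among the 106 wells above 12, 64 had a Kcnip4 UMI and the median was 2 Calb2 UMIs. The wells at the edge of the rule thus were rich in Calb2 and free of Kcnip4.

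The Nos1 limit also left out wells rich in tachykinin or enkephalin transcripts. A further 21 wells had at least 10 Tac1 and Penk UMIs with 2 to 4 Nos1 UMIs, where the median Nos1 well had 14, and they lay on the irradiated plates in 7, 6 and 3 cases, against 0, 3 and 2 on the homeostasis plates. On the irradiated plates these wells held 78, 200 and 234 Penk UMIs, of 96, 220 and 272 in all Nos1 wells of the plates. On the homeostasis plates they held 0, 2 and 2, of 4, 9 and 12. However, 1 well held 53 of the 78 UMIs on the first irradiated plate, and 1 well held 210 of the 234 on the third. The share of wells that meet the rule therefore depends on the Nos1 limit, and both versions are given with the irradiation results.

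Kcnip4, Rab3b, Nrsn1 and Sncg were given with the group as its markers, so their levels are a description. Where they recur below among the genes that passed a test, they are no independent result. Kcnip4, which encodes a subunit that modulates A-type potassium channels, had 124, 253 and 131 CPM on the irradiated plates, against 174, 122 and 138 CPM on the homeostasis plates. It averaged 157 ± 50.6 CPM (SD, n = 6 plates) in the Tac1/Penk wells, 9.89 ± 17.3 CPM in the Tac1/Penk-low wells and 26.6 ± 15.7 CPM in the Nos1 wells. A Kcnip4 UMI was present in 64 of 117 Tac1/Penk wells, against 5 of 140 Tac1/Penk-low wells and 25 of 254 Nos1 wells. With every well thinned to 2000 UMIs the shares were 28.2%, 1.46% and 3.57%, and 0.571% in the CD49b+ (glial gate) wells, which should lack the gene. The Nos1 values include the 21 wells above with at least 10 Tac1 and Penk UMIs. The Nos1 wells with the most Kcnip4 UMIs, up to 6, were among these 21, and no other Nos1 well had more than 2.

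Of the other 3 markers, Rab3b and Sncg separated the classes less evenly. Rab3b, a GTPase of secretory vesicles, averaged 621 ± 82.0 CPM in the Tac1/Penk wells, close to the 519 ± 41.9 CPM of the Tac1/Penk-low wells and far above the 93.7 ± 48.2 CPM of the Nos1 wells. Nrsn1, a protein of neuronal vesicles, averaged 1003 ± 146 CPM in the Tac1/Penk wells, against 541 ± 155 CPM in the Tac1/Penk-low wells and 592 ± 97.3 CPM in the Nos1 wells. Sncg (gamma-synuclein) averaged 4283 ± 265 CPM in the Tac1/Penk wells and 4639 ± 418 CPM in the Nos1 wells, but 1325 ± 624 CPM in the Tac1/Penk-low wells. So Kcnip4 and Nrsn1 were higher in the Tac1/Penk wells than in both other classes, Rab3b marked them beside Nos1 wells and Sncg beside Tac1/Penk-low wells.

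Genes that the rule did not use were tested between the summed wells of each class within plates, with the plate as a block (edgeR's quasi-likelihood test, Benjamini-Hochberg adjusted p under 0.05). Against all other CD49b- wells, 405 of 5552 tested genes differed (7.29%), of which 196 were higher in the Tac1/Penk wells (3.53%) and 209 lower (3.76%). Against the Nos1 wells, 475 of 3950 genes differed (12%). Against the Tac1/Penk-low wells, 471 of 3950 differed (11.9%). The wells were chosen by 5 genes of the same libraries, so these tests ask which other genes went with that choice. Without the plate block 234 genes differed from all other wells and 294 from the Tac1/Penk-low wells. With wells weighted equally (limma) 312 were higher and 135 lower than in all other wells.

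The genes of acetylcholine use were present in the Tac1/Penk wells at levels well above those of the Nos1 wells. Chat, which makes acetylcholine, had 93.1, 49.4 and 92.8 CPM on the irradiated plates and 76.5, 86.9 and 55 CPM on the homeostasis plates in the Tac1/Penk wells. In the Nos1 wells of the plates it had at most 20.4 CPM, so the classes did not overlap on any plate. All 5 tested cholinergic genes were higher than in Nos1 wells, where 6% of all genes were: Chat by 2.71 ± 0.37 (log2 fold change ± SE), the vesicular transporter Slc18a3 by 2.34 ± 0.14, the acetylcholinesterase anchor Prima1 by 1.95 ± 0.40, the choline transporter Slc5a7 by 1.15 ± 0.23, and Ache, the esterase itself, by 0.40 ± 0.14. The call of Ache was lost without the third irradiated plate (0.32) or any 1 homeostasis plate (0.32 to 0.41).

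Beside the Tac1/Penk-low wells no cholinergic gene was higher. Chat averaged 75.6 ± 19.2 CPM in the Tac1/Penk wells and 75.1 ± 28.1 CPM in the Tac1/Penk-low wells. Slc18a3 was lower in the Tac1/Penk wells, at 500 ± 110 CPM against 659 ± 111 CPM, and Prima1 was lower by 1.06 ± 0.32 on the log2 scale. Both calls were lost without the first homeostasis plate (-0.31 and -1.12), that of Slc18a3 also without the third (-0.38) and that of Prima1 without the second (-0.84). A Slc18a3 UMI was seen in 89.7% of Tac1/Penk wells, 87.9% of Tac1/Penk-low wells, 31.5% of Nos1 wells and 0.917% of CD49b+ wells. The cholinergic genes thus did not set the Tac1/Penk wells above the Tac1/Penk-low wells.

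The list of excitatory motor neuron genes followed the same order. All 7 tested members (of 13) were higher than in Nos1 wells, where 6% of all genes were. Their median log2 difference was 2.57, against 0.01 over all genes tested. Ndufa4l2, a mitochondrial protein, was higher by 2.99 ± 0.28, the kappa opioid receptor gene Oprk1 by 2.70 ± 0.32, and Gfra2, the neurturin co-receptor gene, by 2.57 ± 0.32. Beside the Tac1/Penk-low wells 4 of the 7 were lower, where 5.7% of all genes were. They were Calb2, lower by 1.08 ± 0.14, Ndufa4l2 by 1.02 ± 0.19, Gfra2 by 0.97 ± 0.24 and Slc18a3 by 0.43 ± 0.12 on the log2 scale. Calb2 averaged 1566 ± 425 CPM in the Tac1/Penk wells, against 3294 ± 568 CPM in the Tac1/Penk-low wells and 262 ± 99.6 CPM in the Nos1 wells.

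Inhibitory motor neuron genes were mostly low. Of the 10 tested (of 12 in the list), 7 were lower than in all other CD49b- wells and 2 were higher. Of all genes, 3.76% were lower in that comparison and 3.53% higher. Vip, encoding the relaxant peptide VIP, had 171, 104 and 169 CPM on the irradiated plates and 45.9, 69.5 and 110 CPM on the homeostasis plates, against 407 to 2450 CPM in the other wells, with no overlap. Npy, encoding neuropeptide Y, averaged 88.5 ± 37.9 CPM in the Tac1/Penk wells and 1248 ± 316 CPM in the other wells. Etv1, a transcription factor gene, was lower by 4.28 ± 0.22 on the log2 scale, at 19.6 ± 11.8 CPM in the Tac1/Penk wells and 362 ± 78.7 CPM in the others.

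The GDNF receptor gene Gfra1 had no UMI in the 117 wells, against 162 UMIs in the other wells. Set against 3 UMIs over the group, its level was at least 17.9-fold lower than in all other wells and at least 25.5-fold lower than in the Nos1 wells. Mfsd4a, a transporter-family gene, had 3 UMIs in the Tac1/Penk wells and was 27.1-fold lower than in the others by the ratio of counts (interval 9.16 to 132, counting error only). The Tac1/Penk-low wells also had few UMIs of either gene, 2 and 4.

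Gal, the galanin gene, was called lower but not absent. It had 7684, 1725 and 1320 CPM on the irradiated plates and 1102, 2059 and 1685 CPM on the homeostasis plates in the Tac1/Penk wells, against 9451 to 37447 CPM in the other wells. The first irradiated plate stood apart in the Tac1/Penk wells and was also the highest in the other wells. A Gal UMI was found in 100% of the wells of each CD49b- class and in 23.4% of CD49b+ wells, so presence of Gal alone did not mark a cell. The log2 difference from the other wells was -3.13 ± 0.09.

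The 2 members of the inhibitory list that were higher were Gch1, encoding the first enzyme of tetrahydrobiopterin synthesis, by 0.94 ± 0.14, and Gucy1a3, encoding a subunit of the nitric oxide receptor guanylate cyclase, by 0.85 ± 0.14 on the log2 scale. Beside the Tac1/Penk-low wells 3 of the 10 were lower, where 5.7% of all genes were. They were Etv1, lower by 1.52 ± 0.49, Vip by 1.39 ± 0.34 and Gal by 0.93 ± 0.27. Vip in the Tac1/Penk-low wells was carried by the third irradiated plate, at 1440 CPM against 56.0 to 210 CPM on the others. Without that plate the differences of Vip (-0.35) and Etv1 (-0.79) did not pass, and without the first homeostasis plate those of Gal (-0.31) and Etv1 (-1.30) did not. The call of Etv1 was also lost without the third homeostasis plate (-1.60), and with wells thinned to 2000 UMIs its difference was 0.11.

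Among the largest differences from all other wells was Htr2b, which encodes a serotonin receptor. Htr2b had 62.1, 76.9 and 38.2 CPM on the irradiated plates and 153, 104 and 137 CPM on the homeostasis plates in the Tac1/Penk wells, against 0 to 7.14 CPM in the other wells. The classes did not overlap, and the log2 difference was 4.49 ± 0.38 (edgeR adjusted p = 7.1e-12). Htr2b was found in 48 of the 117 wells. The gene lies at chromosome 1, 86099026 to 86111970, minus strand, and Psmd1 runs over it in the opposite direction.

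Gda, encoding guanine deaminase, averaged 85.7 ± 17.8 CPM in the Tac1/Penk wells and 7.05 ± 5.59 CPM in the others, a log2 difference of 3.47 ± 0.34. Cst12, of the cystatin protease inhibitor family, averaged 215 ± 106 CPM and 24.2 ± 14.2 CPM (3.01 ± 0.23), and Nxph4, a neurexophilin, averaged 152 ± 42.7 CPM and 34.3 ± 14.4 CPM (2.14 ± 0.21). Cpne8 (2.14 ± 0.19), Pdlim3 (2.12 ± 0.26), the amino acid transporter gene Slc6a17 (1.68 ± 0.32), Casz1 (1.66 ± 0.26) and Colq, the collagen tail of acetylcholinesterase (1.66 ± 0.25), completed the 10 largest together with Kcnip4 (2.72 ± 0.24). In the opposite direction the largest, besides the inhibitory genes and Mfsd4a, were Slc35d3 (-4.01 ± 0.41), Bglap3 (-3.99 ± 0.17), Bglap2 (-3.95 ± 0.23), Gm13889 (-3.66 ± 0.15) and Nrip3 (-3.53 ± 0.45). Bglap2 and Bglap3 share sequence with near-identical copies (95.2% and 22.5% of their 31-base stretches occur elsewhere in the transcripts), so reads may have been split between them.

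Beside the Tac1/Penk-low wells a different set led. Spock3, encoding a matrix proteoglycan, had 76 UMIs in the Tac1/Penk wells and 2 in the Tac1/Penk-low wells, a ratio of 29.4 (interval 7.87 to 247, counting error only). Moxd1 (3.97 ± 0.39), Myl1 (3.02 ± 0.34), Nrsn2 (2.96 ± 0.38), the prohormone convertase gene Pcsk1 (2.61 ± 0.45), the G protein subunit gene Gng4 (2.18 ± 0.32) and Pcp4, a calmodulin regulator (2.08 ± 0.25), were also higher by the log2 differences given, as were Kcnip4, Gda (3.85 ± 0.59) and Cst12 (4.42 ± 0.39). Lower were Tcap (-3.24 ± 0.47), Ifitm3 (-2.87 ± 0.52), Ly6c2 (-2.47 ± 0.32), Atf3 (-2.46 ± 0.44), Fbln5 (-2.45 ± 0.29), Nt5dc2 (-2.38 ± 0.32), Serping1 (-2.38 ± 0.29), Tmem132c (-2.01 ± 0.39), Phgdh (-1.99 ± 0.42) and the homeobox gene Dlx2 (-1.98 ± 0.37). Ifitm3, Ly6c2 and Phgdh share 20.5%, 23.7% and 55.9% of their 31-base stretches with other transcripts. Fibroblast genes summed to as much as 2418 CPM on 1 plate in the Tac1/Penk-low wells and to at most 23.6 CPM in the Tac1/Penk wells. Without wells of 5 or more glial or fibroblast UMIs 332 of 2648 tested genes differed, with Moxd1 still higher and Fbln5, Ly6c2 and Atf3 still lower, while Tcap, Ifitm3 and Serping1 were too sparse to test.

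Sst, the somatostatin gene and 1 of the sensory and interneuron genes, averaged 23.3 ± 37.4 CPM in the Tac1/Penk wells and 217 ± 152 CPM in the Tac1/Penk-low wells, a log2 difference of -3.12 ± 0.50. Of the 23 genes of that list 4 could be tested against all other wells, and 1 was lower, where 3.76% of all genes were. It was Grp (gastrin-releasing peptide), lower by 1.66 ± 0.40 on the log2 scale. Its call was lost without irradiated plate 2 (-1.43) or 3 (-1.13). Of the 15 tachykinin and opioid ligands and receptors 11 had a UMI in these wells, but only 2 were abundant enough to test against all other wells. Oprk1 was the 1 that passed, where 3.53% of all genes were higher. It was higher by 1.12 ± 0.24, at 166 ± 33.4 CPM in the Tac1/Penk wells and 77.5 ± 51.0 CPM in the others. Oprk1 was higher than in the Nos1 wells by 2.70 but did not pass beside the Tac1/Penk-low wells (-0.35).

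Peptide processing and secretory granule genes were in part higher. Of 15 tested, 5 were higher than in all other wells and 1 lower, where 3.53% of all genes were higher and 3.76% lower. Chgb (chromogranin B, a granule protein) had 885, 950 and 780 CPM on the irradiated plates and 1056, 869 and 955 CPM on the homeostasis plates, against 249 to 569 CPM in the other wells. The classes did not overlap, with a log2 difference of 1.16 ± 0.09. Resp18 (0.53 ± 0.07), the amidating enzyme gene Pam (0.49 ± 0.08), the convertase gene Pcsk2 (0.39 ± 0.08) and Scg2 (0.36 ± 0.08) were higher by less, and Syt4 was lower by 0.42 ± 0.12. Scg2 turned to -0.05 when wells with 5 or more glial or fibroblast UMIs were left out, and also when wells were weighted equally. Syt4 lost its call without irradiated plate 3 (-0.30) or homeostasis plate 2 (-0.36).

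Beside the Tac1/Penk-low wells 4 of the 15 granule genes were higher and none lower, where 6.23% of all genes were higher and 5.7% lower. Pcsk1 had 74 UMIs in the Tac1/Penk wells and 9 in the Tac1/Penk-low wells, Pam was higher by 0.99 ± 0.12, Resp18 by 0.57 ± 0.09 and Scg3 by 0.48 ± 0.15, the last with a call lost without the second irradiated or any 1 homeostasis plate (0.38 to 0.51). Chgb did not pass there, at 916 ± 93.7 CPM and 929 ± 122 CPM.

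Of 18 tested synaptic vesicle genes 5 were higher than in all other wells, where 3.53% of all genes were, and none lower. They were Rab3b, which was given as a marker of the group, the calcium sensor gene Syt1 (0.75 ± 0.08), Syn2 (0.52 ± 0.10), Snap25 (0.35 ± 0.07) and Rab3c, whose call was lost without irradiated plate 1 (0.26) or 3 (0.33) or homeostasis plate 3 (0.35). None of these 5 was called beside the Tac1/Penk-low wells. There 2 of 16 tested, Rab3a and Vamp2, were higher and Vamp1 was lower, where 6.23% of all genes were higher and 5.7% lower. Vamp2 lost that call without irradiated plate 2 (0.27) or 3 (0.27) or homeostasis plate 1 (0.39) or 3 (0.36). Sncb, which encodes a synuclein of nerve endings, was higher by 1.17 ± 0.12, at 412 ± 60.4 CPM in the Tac1/Penk wells and 178 ± 49.2 CPM in the others.

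Ion channels and receptors were called in part, where 7.29% of all genes differed from all other wells. Of 9 tested potassium channel genes Kcnab1 and Dpp6 were lower than in all other wells, by 2.05 ± 0.32 and 0.55 ± 0.14, and Kcnip4, given as a marker, was higher. None of the 10 tested sodium and calcium channel genes passed. Of 11 tested transmitter receptor genes, Gria1, an AMPA-type glutamate receptor subunit, was higher by 1.30 ± 0.33 and Chrna3, a nicotinic receptor subunit, by 0.38 ± 0.10, a call lost without irradiated plate 2 (0.31) or homeostasis plate 2 (0.33) or 3 (0.34). P2rx2, encoding the ATP-gated channel P2X2, was lower than in every class it was tested against, at 70.3 ± 19.0 CPM in the Tac1/Penk wells, against 140 ± 40.9 CPM in the Tac1/Penk-low wells and 191 ± 33.2 CPM in the Nos1 wells. Htr3a, the serotonin-gated channel gene, was higher than in the Tac1/Penk-low wells by 1.77 ± 0.20 and lower than in the Nos1 wells by 0.69 ± 0.12.

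Of 13 tested transcription factor genes of enteric neurons, 4 were higher than in all other wells and 3 lower. Of all genes, 3.53% were higher in that comparison and 3.76% lower. Casz1, a zinc finger factor, had 109, 65.9 and 92.8 CPM on the irradiated plates and 86.7, 122 and 122 CPM on the homeostasis plates, against 13.5 to 45.8 CPM in the other wells, with no overlap. Rbfox1, which was kept in this list although its protein is a splicing factor, was higher by 1.47 ± 0.26, Hoxb5 by 0.76 ± 0.08 and Hoxa5 by 0.55 ± 0.09. Those lower included Etv1 and Tbx3, the second by 2.25 ± 0.25. Beside the Tac1/Penk-low wells no factor was higher and 4 of 12 were lower, where 5.7% of all genes were, among them Etv1, Satb1 (by 1.34 ± 0.28) and Bnc2 (by 1.24 ± 0.37). Bnc2 lost its call without irradiated plate 2 (-0.86) or homeostasis plate 2 (-1.13) or 3 (-1.19).

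Dclk1, the gene whose label was used for the sort, averaged 187 ± 22.1 CPM in the Tac1/Penk wells and 123 ± 14.7 CPM in the others, higher by 0.60 ± 0.14. Of 16 tested axon and cytoskeleton genes 7 were higher than in the Tac1/Penk-low wells and 1 lower, where 6.23% of all genes were higher and 5.7% lower. Tubb3 (neuronal tubulin) was higher by 1.13 ± 0.13, Prph (peripherin) by 0.71 ± 0.08 and Map1b by 0.54 ± 0.09, whereas Basp1 was lower by 1.70 ± 0.27. Compared with the Nos1 wells, 2 of 16 were higher and 5 lower, Tubb3 and Map1b among the 5. There 6% of all genes were higher and 6.03% lower. Compared with all other wells, 2 of 17 were higher and 2 lower, Map1b among the lower. In that comparison 3.53% of all genes were higher and 3.76% lower. Oxidative phosphorylation genes were higher than in the Tac1/Penk-low wells for 8 of 15 tested, where 6.23% of all genes were. Sdha lost that call without irradiated plate 2 or homeostasis plate 1 or 3. Sdhb lost it without irradiated plate 2 or 3 or homeostasis plate 1 or 2. Against all other wells 3 of 15 were higher, where 3.53% of all genes were, and Cox8b was lower by 3.24 ± 0.17. Of those higher, Atp5g1 lost its call without any 1 homeostasis plate (0.23 to 0.31) and Cox5b without the third (0.27).

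Adhesion and guidance genes were called in both directions. Of 15 tested against all other wells none was higher and 2 were lower, where 3.53% of all genes were higher and 3.76% lower. The 2 were Alcam and Thy1, lower by 1.58 ± 0.19 and 1.36 ± 0.22. Of 11 tested against the Tac1/Penk-low wells 3 were higher and 1 lower, where 6.23% of all genes were higher and 5.7% lower. The ephrin receptor gene Epha5 was higher there by 2.03 ± 0.21. Alcam was also higher there, a call lost without irradiated plate 2 (0.97) or 3 (1.19) or homeostasis plate 2 (0.97). Alcam, Thy1 and Epha5 were lower than in the Nos1 wells, where 6.03% of all genes were. Of the cholesterol synthesis genes Hmgcs1 was lower than in all other wells by 0.69 ± 0.12. Beside the Tac1/Penk-low wells 3 of 11 tested, Sqle and Msmo1 among them, were higher, where 6.23% of all genes were. Msmo1 lost its call without any 1 of 4 plates (0.41 to 0.49). Cd24a, a surface glycoprotein gene, was higher than in all other wells by 1.07 ± 0.15.

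Immediate early genes, which neurons switch on within minutes of stimulation, were lower in the Tac1/Penk wells than in every class they were tested against. All 15 tested (of 18) were lower than in all other wells, with a median log2 difference of -1.40 against 0.00 over all genes, where 3.76% of genes were lower. With wells weighted equally (limma) 14 of the 15 were lower and the median was -0.57, on a log2 scale with a pseudocount that understates low genes. All 12 tested were lower than in the Nos1 wells (6.03% of genes) and all 12 were lower than in the Tac1/Penk-low wells (5.7% of genes). Fos, which pairs with Jun in the factor AP-1, had 1195, 923 and 557 CPM on the irradiated plates and 663, 704 and 715 CPM on the homeostasis plates in the Tac1/Penk wells. It averaged 793 ± 230 CPM in the Tac1/Penk wells and 1342 ± 211 CPM in the others, a log2 difference of -0.85 ± 0.08. Dusp1, a phosphatase that damps MAP kinase signals, averaged 479 ± 161 CPM and 1206 ± 285 CPM (-1.40 ± 0.10). Atf3 was lower by 2.71 ± 0.30, Junb by 1.73 ± 0.14, Jun by 1.67 ± 0.14, Btg2 by 1.63 ± 0.18, Ier2 by 1.61 ± 0.13 and Egr1 by 1.38 ± 0.12.

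The summed level of the 18 genes was lower on every plate. It was 4347, 3148 and 2679 CPM on the irradiated plates and 2985, 3258 and 3433 CPM on the homeostasis plates in the Tac1/Penk wells, against 5784 to 9176 CPM in the Tac1/Penk-low wells and 5078 to 9087 CPM in the Nos1 wells. Per well the median was 2785 CPM (241 to 10739) in the Tac1/Penk wells, 6081 CPM in the Tac1/Penk-low wells and 6505 CPM in the Nos1 wells. Over 10000 CPM was reached by 2 of 117, 25 of 140 and 76 of 254 wells of these classes. The 17 Calcb/Scgn wells had a median of 1944 CPM, so low sums were not limited to the Tac1/Penk wells. The order in which cells were sorted is not given in the sources used here, and its part was not tested.

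**Figure D2:**
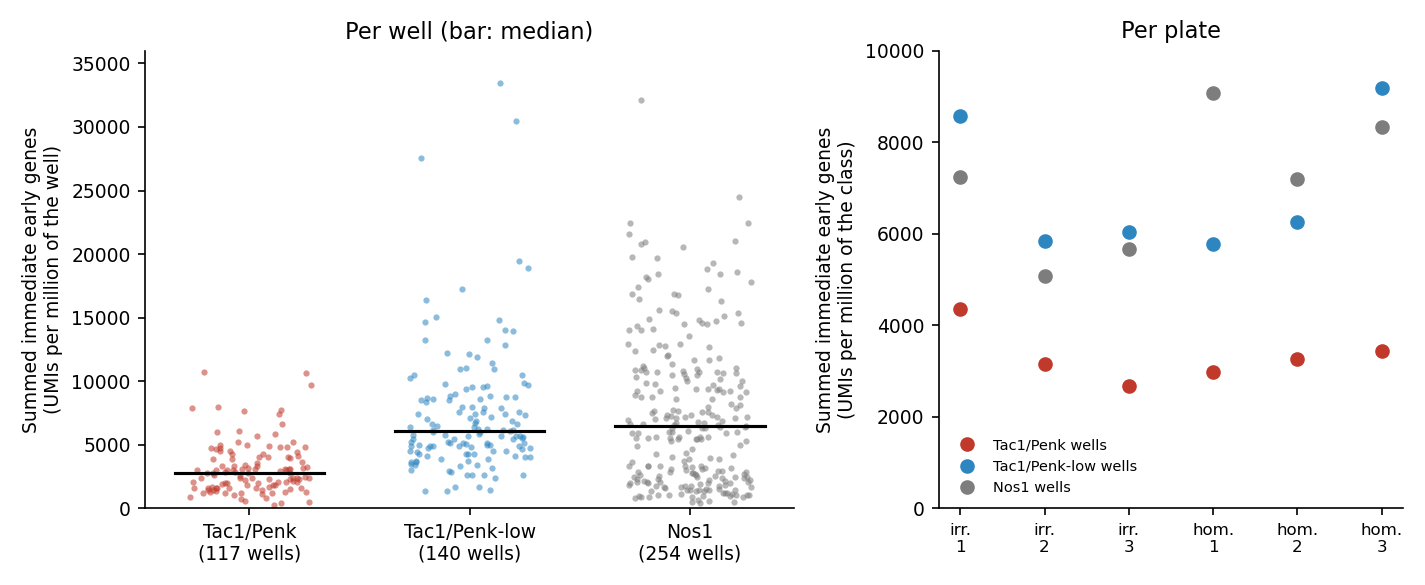
Summed level of 18 immediate early genes in CPM, per well by class with the median as a bar, and per plate by class, irradiated plates at the left. The Tac1/Penk wells sum to 2679 to 4347 CPM per plate and lie below the Tac1/Penk-low and Nos1 wells of all 6 plates.

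Within the Tac1/Penk wells the Calb2 counts left a gap. Of the 117 wells 53 had 9 or more Calb2 UMIs (median 27), 64 had 4 or fewer (median 1), and none had 5 to 8. The split was chosen after the counts were seen, so what follows is a description without a test. Both kinds occurred on every plate: 4 of 11, 7 of 20 and 12 of 20 wells on the irradiated plates were Calb2-rich, against 11 of 24, 7 of 13 and 12 of 29 on the homeostasis plates. Depth was similar, with median UMI counts of 8599 in the Calb2-rich and 8117 in the Calb2-poor wells.

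The given markers of the group sat mostly in the Calb2-poor wells. Kcnip4 was seen in 9 of 53 Calb2-rich and 55 of 64 Calb2-poor wells, at 43.5 ± 54.0 CPM and 272 ± 46.8 CPM. Sncg averaged 2870 ± 522 CPM in the Calb2-rich and 5622 ± 453 CPM in the Calb2-poor wells. Median Tac1 counts were 23 and 34 UMIs, and 8 and 21 wells had 10 or more Penk UMIs. Across the 117 wells the Spearman correlation of Calb2 with Kcnip4 was -0.57, of Calb2 with Sncg -0.66 and of Sncg with Kcnip4 0.65, over wells that share plates and differ in depth.

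Several genes were seen in a larger part of one kind than of the other. Tcf7l2, a transcription factor of Wnt signalling, had a UMI in 47 of 53 Calb2-rich and 12 of 64 Calb2-poor wells (492 ± 202 CPM and 31.5 ± 38.8 CPM). Ngef was seen in 40 and 8 wells, the retinol carrier gene Rbp4 in 43 and 9, the growth cone protein gene Basp1 in 33 and 0, and Cbln1, a synapse organiser, in 28 and 4. In the other direction, Rgs5, a regulator of G protein signalling, was seen in 0 Calb2-rich and 23 Calb2-poor wells, Nrsn2 in 5 and 51, Gda in 6 and 37, and Gria1 in 7 and 29. Rgs5 is also a pericyte gene, and Cspg4, the other pericyte gene of the list, had 2 UMIs in the Tac1/Penk wells; a part of other cells in these Rgs5 UMIs was not tested.

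Genes of the whole group also differed in level between its kinds. Htr2b averaged 47.1 CPM in the Calb2-rich and 144 CPM in the Calb2-poor wells, Slc18a3 666 and 356 CPM, Casz1 131 and 74.6 CPM, and Chat 89.7 and 61.2 CPM. Fos averaged 1114 ± 395 CPM and 516 ± 183 CPM, and the median summed immediate early level was 3891 CPM in the Calb2-rich and 2246 CPM in the Calb2-poor wells. Of the 140 Tac1/Penk-low wells 122 had 9 or more Calb2 UMIs, as had 12 of the 254 Nos1 wells. Differences between the Tac1/Penk and the Tac1/Penk-low wells are thus between a class in which 53 of 117 wells were Calb2-rich and one in which 122 of 140 were.

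**Figure D3:**
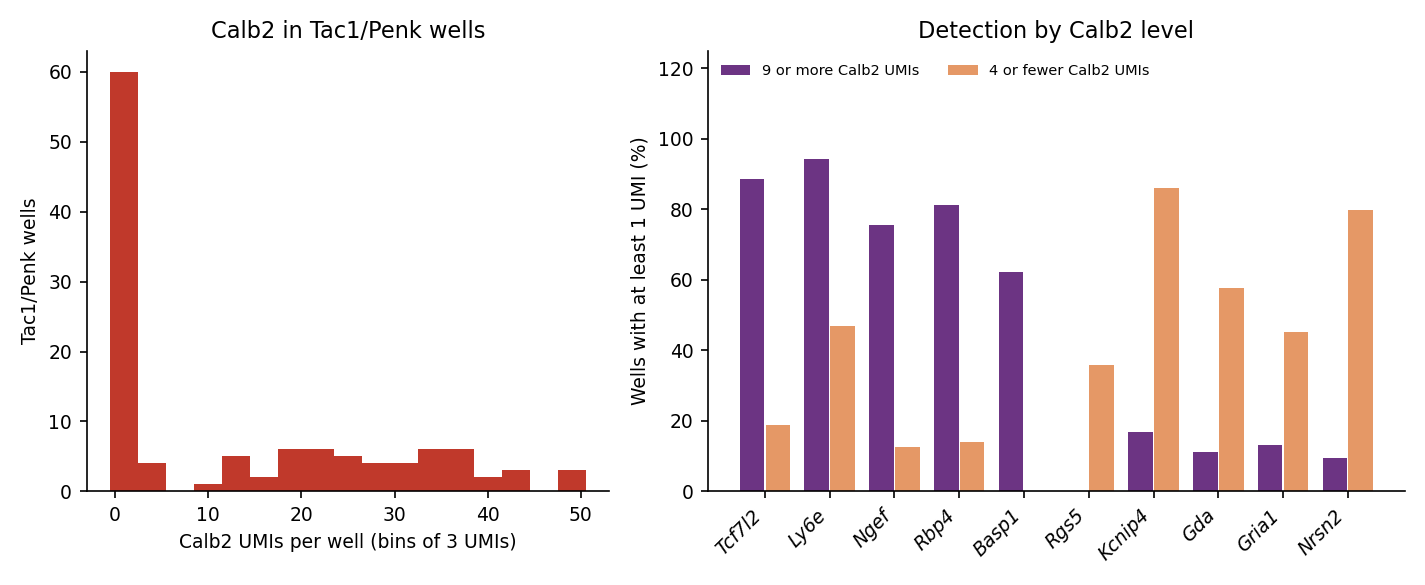
Left, number of Tac1/Penk wells by Calb2 UMIs in steps of 3. Right, percentage of Calb2-rich (9 or more UMIs, 53 wells) and Calb2-poor (4 or fewer, 64 wells) wells with a UMI of 10 genes, where Tcf7l2, Rbp4, Ngef and Basp1 are more frequent in the first kind and Nrsn2, Kcnip4, Gda, Gria1 and Rgs5 in the second.

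Wells with more Tac1 than Penk were compared with wells with more Penk than Tac1 on the 3 plates that held at least 3 of each, irradiated plates 2 and 3 and homeostasis plate 3. Of 1775 tested genes 6 differed (0.338%). Tac1-dominant wells had more Chgb (1019 CPM against 390 CPM, log2 difference 1.28 ± 0.25), more Scg2 (2625 against 1333 CPM, 1.02 ± 0.21), more Ly6e (504 against 131 CPM, 1.95 ± 0.35) and more Ly6c1 (3.06 ± 0.57), which shares 46.8% of its 31-base stretches with other transcripts. They had less Mt3, encoding a brain-type metallothionein (224 ± 28.4 CPM against 907 ± 578 CPM, -2.0 ± 0.29), and less Cartpt, encoding the CART peptide (559 ± 255 CPM against 1345 ± 187 CPM, -1.32 ± 0.20). Without the second irradiated plate no gene passed, without the third irradiated plate 25 did and without the third homeostasis plate 12 did. Calb2-rich wells made up 48 of the 101 Tac1-dominant and 4 of the 15 Penk-dominant wells.

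Among the Penk-dominant wells 5 had at most 1 Tac1 UMI, with 28 to 103 Penk UMIs (median 47). They were singled out after their values were seen and are described without a test. These 5 wells held 89 of the 112 UMIs of Pcp4l1 in all Tac1/Penk wells, and each had at least 5, whereas none of the other 112 wells did. They also held 34 of the 36 UMIs of Ntng1, encoding the axon guidance protein netrin-G1. Their median Mt3 count was 18 UMIs, against 1 in the other wells. All 5 had a UMI of Slc18a3 and of Kcnip4, and none had 5 or more Calb2 UMIs. They lay 0, 1 and 0 on the irradiated plates, against 1, 1 and 2 on the homeostasis plates.

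The irradiation comparison asked whether the share and the transcripts of these neurons differed 3 days after 10.5 Gy. The Tac1/Penk wells made up 12%, 22.5% and 23.5% of retained CD49b- wells on the irradiated plates, against 25.8%, 16.7% and 31.9% on the homeostasis plates. The exact (Clopper-Pearson) 95% intervals were 6.12 to 20.4%, 14.3 to 32.6% and 15 to 34% for the irradiated plates, and 17.3 to 35.9%, 9.18 to 26.8% and 22.5 to 42.5% for the homeostasis plates. The plates overlapped, and the means of 19.3 ± 6.40% and 24.8 ± 7.65% (SD, n = 3 each) differed by -5.46 points (2-sided exact permutation test, p = 0.4, where 0.1 is the smallest p that 3 plates against 3 allow). With up to 4 Nos1 UMIs allowed, a limit added after the counts were seen, 136 wells qualified and the means were 24.5 ± 5.28% and 26.8 ± 6.83%, a difference of -2.25 points (exact permutation p = 0.8). A share does not tell fewer cells of a type from less RNA of the rule's genes per cell.

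Of 3595 genes tested between irradiated and homeostasis Tac1/Penk wells, 1 passed (0.0278%), and 111 were higher and 129 lower at an unadjusted p under 0.05 (edgeR). DESeq2 likewise called 1. The count rested on single plates: it was 25, 10 and 5 without irradiated plates 1, 2 and 3 in turn, and 2, 2 and 3 without homeostasis plates 1, 2 and 3 in turn. The plates of the treatments did not overlap for 208 genes higher in irradiated wells (5.79%) and 197 lower (5.48%). None of the 4 tested p53 target genes, 5 interferon and antigen presentation genes or 11 immediate early genes passed. B2m, an antigen presentation gene, had 543, 599 and 338 CPM on the irradiated plates, against 270, 261 and 255 CPM on the homeostasis plates, without overlap. On the second irradiated plate 1 well held 36 of its 109 UMIs. B2m passed only with a limit of 1 in 1000 UMIs (1.05) and without irradiated plate 3 (1.15).

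The gene that passed was A330069E16Rik, a long non-coding RNA (GRCm38, chromosome 2, 91237146 to 91238352, plus strand). It had 450, 176 and 240 CPM on the irradiated plates, against 10.2, 34.7 and 3.93 CPM on the homeostasis plates, without overlap (log2 fold change 4.29 ± 0.50, edgeR adjusted p = 1.8e-05). Few wells carried it: 4 irradiated wells with 29, 16, 16 and 41 UMIs held 102 of the 105 UMIs of the irradiated plates. With wells weighted equally, the log2 difference was 0.32 and did not pass (limma adjusted p = 0.82). In the other CD49b- wells it had 130, 32.1 and 133 CPM on the irradiated plates, against 57.9, 24.1 and 46.7 CPM on the homeostasis plates.

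Cartpt, Htr3a and Htr2b separated the plates by treatment but did not pass with all plates and the settings of the other tests. Cartpt had 1320, 599 and 966 CPM on the irradiated plates, against 276, 295 and 570 CPM on the homeostasis plates (1.22 ± 0.25, edgeR adjusted p = 0.056). It passed with age at tamoxifen as a term (1.55, edgeR adjusted p = 5.5e-05), with limits of 5 UMIs (1.31) or 1 in 1000 UMIs (1.26), with no filter on low counts, and without irradiated plate 1 (0.96) or 2 (1.497) or homeostasis plate 3 (1.70). In wells thinned to 2000 UMIs Cartpt was the 1 gene that passed (1.68, edgeR adjusted p = 5e-05), and A330069E16Rik was too sparse to test there. With DESeq2 and with wells weighted equally (limma) it did not pass. Htr3a had 435, 555 and 540 CPM on the irradiated plates, against 311, 139 and 302 CPM on the homeostasis plates (0.98 ± 0.22, edgeR adjusted p = 0.099), and it passed with the age term (1.16), with no filter (0.98) and without irradiated plate 1 (1.02). For Cartpt and Htr3a the plates did not overlap, as for 5.79% of all genes in that direction. In the other CD49b- wells Cartpt had 4961, 3032 and 7747 CPM with irradiation, against 923, 2109 and 3765 CPM in homeostasis. Htr3a had 383, 604 and 583 CPM there, against 224, 374 and 427 CPM. Both genes overlapped between the treatments in those wells. The Htr2b levels given above were lower on every irradiated plate than on any homeostasis plate (-1.20 ± 0.35, edgeR adjusted p = 0.28), as were those of 5.48% of all genes. Cd24a had 310, 527 and 497 CPM on the irradiated plates, against 209, 374 and 291 CPM on the homeostasis plates, and overlapped. The repeat-like gene models Gm10800 and Gm10801 were too sparse to test under the filter used: Gm10800 had 730, 54.9 and 21.8 CPM on the irradiated plates, where 1 well of the first plate held 34 of its 47 UMIs there, against 5.10, 0 and 0 CPM on the homeostasis plates. Both passed where they could be tested with a limit of 5 UMIs (6.33 for Gm10800 and 7.99 for Gm10801, edgeR adjusted p = 0.0085 for each), with no filter on low counts (6.16 and 7.79), and over all retained CD49b- wells (5.59 and 6.85). Gm10801 also passed without irradiated plate 3 (8.54). With homeostasis plates at or near 0, these fitted values depend on the prior count.

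**Figure D4:**
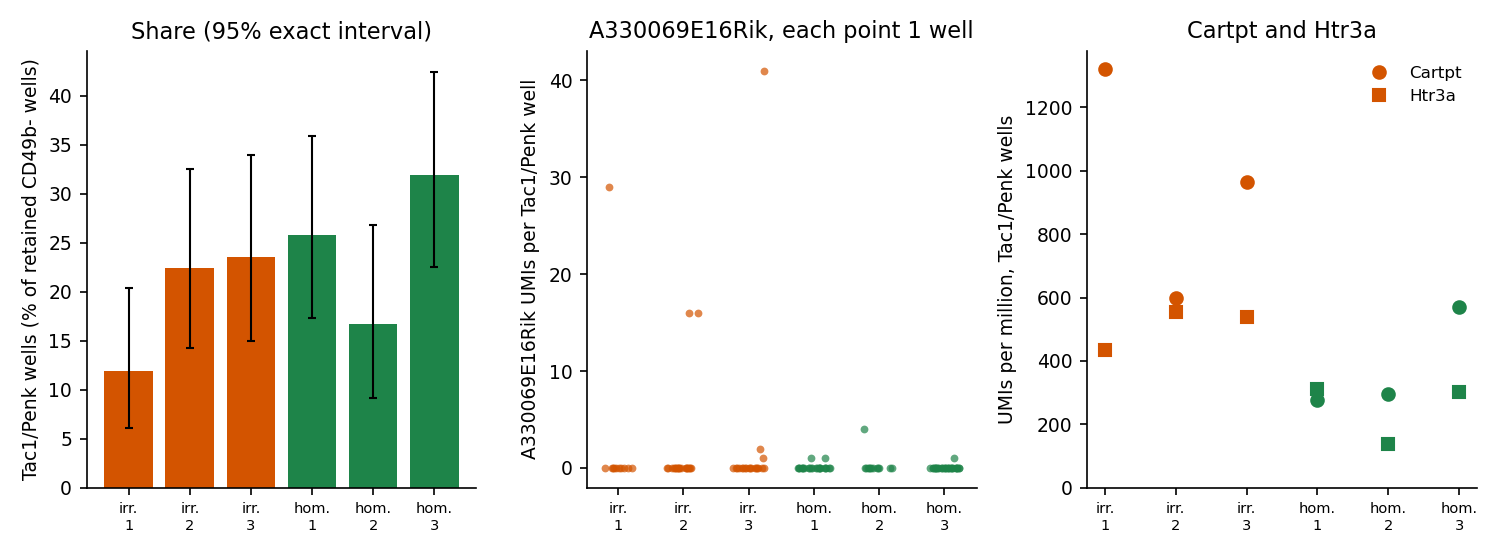
Share of retained CD49b- wells that were Tac1/Penk wells, per plate with its 95% exact interval; A330069E16Rik UMIs of each Tac1/Penk well; and Cartpt and Htr3a in CPM per plate, with irradiated plates at the left. Shares overlap between treatments, and A330069E16Rik is high in 4 irradiated wells.

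The effect of irradiation was also tested for a difference between the Tac1/Penk wells and the other CD49b- wells, and 3 of 6816 genes passed (0.044%), 1 with a larger (0.0147%) and 2 with a smaller effect in the Tac1/Penk wells (0.0293%). They were A330069E16Rik, with an effect larger by 3.28 ± 0.60 on the log2 scale (edgeR adjusted p = 0.0057), Ntng1, smaller by 4.04 ± 0.71 (edgeR adjusted p = 0.0057), and Pcp4l1, smaller by 2.49 ± 0.48 (edgeR adjusted p = 0.012). Ntng1 had 0, 16.5 and 5.46 CPM on the irradiated plates, against 35.7, 86.9 and 58.9 CPM on the homeostasis plates in the Tac1/Penk wells. In the other wells it had 33.5, 58.9 and 94.5 CPM on the irradiated plates, against 19.3, 31.5 and 28.4 CPM on the homeostasis plates. Neither set of plates overlapped, and the directions were opposite, but the counts were small. The Tac1/Penk wells held 0, 3 and 1 Ntng1 UMIs with irradiation, against 7, 10 and 15 in homeostasis. The closest plates of the other wells held 16 UMIs with irradiation and 17 in homeostasis. Of all genes tested for irradiation in the Tac1/Penk wells, 5.48% were lower without overlap. That share was not worked out for the other wells. Pcp4l1 had 15.5, 110 and 38.2 CPM on the irradiated plates, against 143, 243 and 110 CPM on the homeostasis plates in the Tac1/Penk wells, and the plates overlapped. Most of the UMIs of both genes came from the 5 wells with at most 1 Tac1 UMI, of which 1 was on an irradiated and 4 were on homeostasis plates. DESeq2, limma with wells weighted equally and the fit without the plate block each called none of the 3. The call of A330069E16Rik was lost without homeostasis plate 1 (2.91) or 3 (2.61), that of Ntng1 without the third irradiated plate (-3.25), and that of Pcp4l1 without irradiated plate 3 (-1.25) or homeostasis plate 1 (-2.22). The count was 5, 13 and 5 without irradiated plates 1, 2 and 3 in turn, and 1, 5 and 4 without homeostasis plates 1, 2 and 3 in turn.

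The index numbers in the labels place the first irradiated and first homeostasis plates next to each other and the other plates of each treatment in sets of their own, so only that pair allows a comparison within a set, though the labels do not say that the sets are sequencing runs. In that pair A330069E16Rik had 450 CPM on the irradiated and 10.2 CPM on the homeostasis plate, Cartpt 1320 and 276 CPM, Htr3a 435 and 311 CPM, and Cd24a 310 and 209 CPM. The age at tamoxifen was 8 weeks for this pair and for the third homeostasis plate and 9 weeks for the others. Set and treatment cannot be told apart on the remaining plates.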

How the data were processed

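Single cells were sorted into 96-well plates and turned into libraries in the well, per the labels' protocols. The authors deposited a table of UMI counts per gene and well, not normalized, which was used as it stands. The submitters' processing notes name 2 genome builds, GRCm38 (mouse) and GRCh38 (human), the aligner STAR (2.5.3a) and the counter featureCounts (1.5.3), and do not say which step used which. How UMIs were collapsed and whether counting used strand are not given in the sources used here. The table maps each well to its plate, and no column was left without a plate.

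Counts were summed over the wells of a class on each plate. Levels are UMIs of a gene per 1000000 UMIs of the summed wells (CPM), not corrected for gene length. Genes were therefore not compared with each other, apart from the Tac1 and Penk UMIs of a well. Tests used edgeR 4.0.16 in R 4.3.3 (TMM factors, default filterByExpr, quasi-likelihood test, Benjamini-Hochberg adjusted p under 0.05 over all tested genes). Comparisons of classes and of Tac1-dominant with Penk-dominant wells had the plate as a block, with classes of at least 5 wells per plate (3 for dominance). Irradiation was tested on plates, and its difference between Tac1/Penk and other wells as an interaction with the plate as a block. Shares were compared by an exact permutation test. DESeq2 1.42.0, limma 3.58.1 and other settings were alternatives. Python 3.11.15 did the rest. Fits were checked on simulated counts. Each count of 0 was set against 3 UMIs over the group. Intervals and floors cover counting error only, and p-values measure the spread between plates, each a pool of 2 mice.

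Positions and shared 31-base stretches come from a GRCm38 annotation and its transcripts, GENCODE vM21. The members, gene lists and tests were chosen with earlier results of these data known. Genes were named by a rule: the genes of the rule and the given markers as values; the 10 largest differences in each direction from all other and from Tac1/Penk-low wells that passed, reached 50 CPM in the higher class and had 1 sign on all plates; up to 10 genes per direction that passed in the other comparisons; list genes that passed, with up to 4 of each list that did not; and Gm10800, Gm10801, A330069E16Rik, Cd24a and Cartpt. The genes of the Calb2 split and of the wells with at most 1 Tac1 UMI were chosen after their values were seen. Values of some list genes are not reported here.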

Additional observations from a re-analysis of the deposited data

Results flagged for a closer look

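In 3 genes the effect of irradiation differed between the Tac1/Penk wells and the other CD49b- wells by a test of that difference (edgeR, plate as a block). The log2 difference of the effects was 3.28 for A330069E16Rik, -4.04 for Ntng1 and -2.49 for Pcp4l1. In the Tac1/Penk wells 4 irradiated wells held 102 of the 105 irradiated UMIs of A330069E16Rik, and the 5 wells with at most 1 Tac1 UMI held 34 of 36 Ntng1 and 89 of 112 Pcp4l1 UMIs.

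In the CD49b+ gate, which the comparisons do not use and which should lack these neurons, 1 of 436 retained wells had 83 UMIs of Tac1 and Penk together (66 of Tac1 and 17 of Penk), with 11627 UMIs in all and 8 of the neuronal gene Elavl4. It was on the second irradiated CD49b+ plate. The next highest of 213 irradiated CD49b+ wells had 6 such UMIs, and the highest of 223 homeostasis CD49b+ wells had 3.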

How the results depend on the processing

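Of 5084 values of named genes under the alternatives, 4465 kept their direction and their side of the threshold, 596 no longer passed, 15 newly passed and 8 reversed. The reversals were Fbln5 (0.44), Serping1 (0.30) and, against the Tac1/Penk-low wells, Vip (0.50) with a limit of 5 Tac1 and Penk UMIs; Serping1 (0.20) with a limit of 1 in 1000 UMIs; Calb2 (-0.30) and Scg2 (-0.053) without wells of 5 or more glial or fibroblast UMIs; Scg2 (-0.052) with wells weighted equally; and Etv1 (0.11) against the Tac1/Penk-low wells with wells thinned to 2000 UMIs. All are against the other wells unless said, and the cause was not tested.

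The 405 genes that differed from all other wells became 206 with DESeq2, 234 with no replicate block for the plate, 107 in thinned wells and 205 without wells of 5 or more glial or fibroblast UMIs, and 285 to 382 with 1 plate left out. The 471 against the Tac1/Penk-low wells became 243 with DESeq2, 294 with no replicate block, 232 with a limit of 5 UMIs, 238 with 1 in 1000, 131 thinned, 332 without wells of glial or fibroblast UMIs, and 308 to 439 with 1 plate left out. The 475 against Nos1 wells became 722 with no filter on low counts, 343 with no replicate block, 137 thinned, 196 without wells of glial or fibroblast UMIs, and 409 to 490 with 1 plate left out. The thinned wells and those left after removing glial or fibroblast UMIs leave fewer genes to test (1776 and 3338 of 5552 in the first comparison).

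The 1 gene called for irradiation became 16 with no filter, 6 with age at tamoxifen as a term, 6 with a limit of 5 UMIs, 6 with 1 in 1000, 7 over all retained CD49b- wells, 0 in limma with wells weighted equally (an alternative added after the data were seen), and 2 to 25 with 1 plate left out. The 3 genes of the interaction became 0 with DESeq2, with no replicate block, thinned, without wells of glial or fibroblast UMIs and in limma, 9 with no filter, 14 with a limit of 5 UMIs, 5 with 20, 8 with 1 in 1000, and 1 to 13 with 1 plate left out. The 6 genes between Tac1-dominant and Penk-dominant wells became 2 with DESeq2, 17 with no filter, 14 with a limit of 5 UMIs, 14 with 1 in 1000, 1 thinned, 4 with no replicate block, and 0 to 25 with 1 plate left out. The share difference of -5.46 points became 0.29 with a limit of 1 in 1000 UMIs and ranged from -9.52 to -1.78 with 1 plate left out.

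Of the immediate early genes, 9 of 11 tested were lower than in all other wells in thinned wells, 12 of 15 with DESeq2 and with no replicate block, 16 of 18 with no filter and 15 of 15 in the fit as reported, and none was higher in these settings. Their median of -1.40 became -0.57 in limma with wells weighted equally. No paired analysis was possible because irradiated and homeostasis plates share no mice and their numbers only follow the order of deposit. The pair of first plates gives values without a test. A threshold of 10 UMIs is near the counts of wells at its edge, and genes under about 10 UMIs per class and plate were mostly too sparse to test.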
